A study of Homo sapiens with 6 samples.

Results

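Narrow islands are the candidate METTL14-enriched regions of untreated HepG2 cells that span 1200 bp or less. An island is a run of windows with more reads than background, as called by the peak caller SICER. The 529 narrow islands were selected by width, which comes from the untreated reads themselves, out of 38695 candidate islands on the nuclear chromosomes. Their untreated values are therefore descriptions, and no test on them is read as a result. HepG2 is a human hepatocellular carcinoma line. The cells were a stably transduced, puromycin-resistant population sorted for high GFP, whose lentiviral PLJM1 vector held METTL14 cDNA between an N-terminal HA tag and a C-terminal EGFP. Both conditions share this overexpression, so no group shows METTL14 at its native level. Chromatin immunoprecipitation (IP) used an anti-HA antibody, with 2 IP and 2 input libraries from untreated cells and 1 of each from cells given 100 µM DRB for 3 hours. The files hold 1 table per condition, so no value has an error between replicates, and each interval is an exact Clopper-Pearson 95% interval that covers counting error only.

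METTL14 is the partner of the methyltransferase METTL3 in the nuclear complex that writes N6-methyladenosine (m6A) on RNA. The complex acts on nascent transcripts, and METTL14 contributes RNA and chromatin contacts. DRB blocks transcription elongation by inhibiting the kinase CDK9, so the DRB libraries ask where METTL14 is recovered when elongation is blocked.

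Every enrichment below is IP reads over input reads, scaled by the authors' constant for the depth of the libraries and called the fold. The constant was 1.07 for untreated and 0.861 for DRB reads. The nuclear islands held 14495388 IP and 14661480 input reads untreated, and 1977419 and 1330018 after DRB. Positions are on hg19 and 1-based. The annotation at hand is of another build, so the few gene names given rest on general knowledge of where those genes lie on hg19. The RefSeq table for GRCh38.p14 places all 5 named genes on the same chromosome as their island.

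The highest fold among narrow islands stood at a gene of U3, the box C/D small nucleolar RNA that guides early processing of ribosomal RNA. The island on chromosome 17 at 18965401 to 18965800, at SNORD3B-1, had 128 IP and 19 input reads, a fold of 7.23 (4.44 to 12.4). A second island on that chromosome, at 19091201 to 19091600 over SNORD3A, ranked 7 by fold. It had 55 IP and 15 input reads, a fold of 3.93 (2.19 to 7.5). Both were 400 bp wide and isolated, with the nearest other untreated island 54.2 kb and 125.4 kb away. Their input was at or below the usual level, 0.908 and 0.717 times the median reads per kb of all nuclear islands. U3 is encoded by several near-identical gene copies, so reads of 50 nt may be split among them or misplaced, and both values are uncertain for that reason. No DRB candidate island lay over either site. Of the 387 narrow islands with input under 2 times that median, 128 lay under a DRB island. The DRB candidates start at 11 IP reads, so an absent island is not a read count.

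The METTL14 gene on chromosome 4 held 2 narrow islands. At 119626601 to 119627800 there were 865 IP and 139 input reads, a fold of 6.68 (5.58 to 8.05). At 119615201 to 119615800 there were 256 IP and 62 input reads, a fold of 4.43 (3.35 to 5.95). Each lay 1.2 kb from its nearest neighbour, and 5 wider islands of the same stretch had folds from 1.95 to 4.67. Input density was 2.21 and 1.97 times the median. The vector carries METTL14 cDNA, and its part in these reads was not tested.

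The other named genes were CHFR and BTRC. CHFR is a ubiquitin ligase of the mitotic checkpoint, and BTRC is the F-box protein that brings phosphorylated substrates to the SCF ubiquitin ligase. The island in CHFR on chromosome 12 at 133442801 to 133443400 had 215 IP and 44 input reads, a fold of 5.24 (3.78 to 7.43), and no other island within 103.4 kb. The island in BTRC on chromosome 10 at 103124001 to 103124800 had 520 IP and 144 input reads, a fold of 3.87 (3.22 to 4.69), at 3.44 times the median input density. Of these 2 sites only that in BTRC lay under a DRB island. The CHFR site had 1.40 times the median input density, and under 2 times most narrow islands had no DRB island.

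Chromosome 1 carried 3 of the 20 highest folds, between 146555601 and 148242200. The islands at 148241401 to 148242200, 147994001 to 147994800 and 146555601 to 146556600 had folds of 4.09 (2.63 to 6.56), 3.77 (2.57 to 5.66) and 2.90 (1.94 to 4.44). A window around these sites, with bounds chosen after the values were seen, held 6 narrow islands among 41. The 6 narrow ones lay between 145461401 and 148605000, and the window reached beyond them on both sides. All 6 were on the authors' significant list, with folds from 1.84 to 4.09 and 21 to 58 input reads, and none had a DRB island over it. Their input was under 2 times the median density, a class in which 33.1% of narrow islands lay under a DRB island. The other 35 islands of the window were wider, with folds from 0.844 to 2.16, and 11 of the 41 were listed in all.

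The other members of the 20 highest are given by position. Chromosome 13 at 46948401 to 46948800 had 200 IP and 45 input reads (4.77, 3.44 to 6.75), with its nearest neighbour 230.0 kb away. Chromosome X at 23825401 to 23826200 had 81 and 26 reads (3.34, 2.13 to 5.42). Chromosome 4 at 76806601 to 76807400 had 77 and 25 reads (3.30, 2.08 to 5.42). The remaining members of the 20 had folds between 2.90 and 3.22. The 20 islands lay on 11 chromosomes and were all on the authors' significant list.

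**Figure D1:**
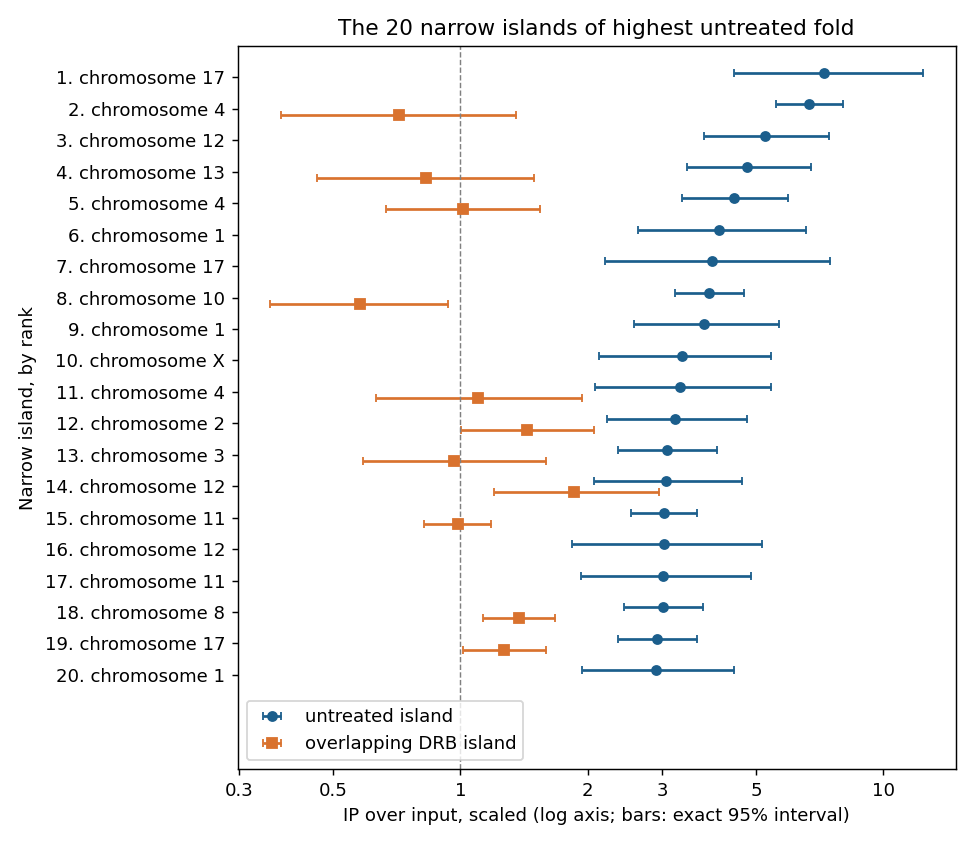
The 20 narrow islands of highest untreated fold, ranked from the top. Circles are the untreated fold and squares the fold of the DRB island over the same site, with exact 95% intervals on a log axis; 9 of the 20 have no DRB island. Untreated folds run from 2.90 to 7.23, and the 11 DRB folds lie between 0.580 and 1.86, below the untreated fold in every case.

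Narrow islands covered 0.474 Mb, 0.187% of the bases in nuclear islands, and held 0.515% of their IP reads. The median fold was 1.30 (quartiles 1.1 and 1.69), against 1.08 (1.004 and 1.17) in the 38166 wider islands. Before scaling, the median ratio of IP to input reads was 1.21. A fold of 2 or more was reached by 71 narrow islands out of 127 in the whole table, and a fold of 3 or more by 18 out of 25. The authors' list of significant islands (false discovery rate under 1e-04) held 141 of the 529, or 26.7% (22.9 to 30.6). Over all nuclear islands it held 5.10%. An exact binomial test of IP against input, which also counts the error of the input, called 40 narrow islands at that threshold. Its share over all nuclear islands is not given here. Width, list and that test rest on the same reads, so nothing is read from these counts or shares.

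IP reads varied less than input reads among the narrow islands. The quartiles were 84 and 106 for IP reads, with a median of 93. For input reads they were 57 and 95, with a median of 76. The 141 listed members had a median of 96 IP and 52 input reads, and the 388 others 92 and 82. The 2 kinds were close in IP reads and further apart in input reads. Islands are called from IP reads and these were limited in width, so similar IP counts are favoured by the selection itself. Spearman's rho of fold and input density over the 529 was -0.69, a description only, since input reads enter both quantities.

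Fold depended on width within the group. The 90 islands of 200 or 400 bp had a median fold of 1.08 and 5.78 times the median input density, and 14 were listed. The 122 islands of 600 or 800 bp had a median fold of 1.65 at 1.39 times the density, and 58 were listed. The 317 islands of 1000 or 1200 bp had a median fold of 1.30 at 1.32 times the density, and 69 were listed. Just inside the limit, the 189 islands of 1200 bp had a median fold of 1.29 (quartiles 1.14 and 1.55). Just outside it, the 309 of 1400 bp had 1.285 (1.11 and 1.47), so no step marks the limit.

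The narrow islands were divided by input density. Input reads enter both the density and the fold, so the median folds and listed counts of these classes are descriptions only. In 387 islands the density was under 2 times the median, and there the median fold was 1.44 and 124 were listed. In 75 it was 2 to 5 times, with a median fold of 1.08 and 11 listed. In 67 it was at least 5 times, up to 172 times, with a median fold of 0.997 and 6 listed. Only 42 of the 38166 wider islands were as dense as those 67. The most extreme was on chromosome 1 at 569601 to 570200, where the nuclear genome carries a long copy of mitochondrial DNA. It had 3155 IP and 5395 input reads, the lowest fold of all members at 0.627 (0.600 to 0.656). Chromosome 17 at 22020601 to 22020800 followed with 355 and 565 reads (0.674, 0.589 to 0.771), and chromosome 7 at 45291401 to 45291800 with 168 and 251 (0.718, 0.587 to 0.877). The remaining members of the 5 lowest, on chromosomes 14 and 17, had folds of 0.746 and 0.759.

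A smaller set of members combined a high fold with a dense input. These 16 islands, picked after the values were seen, had a fold of at least 2 and at least 2 times the median input density, and they include the sites in BTRC and the wider of those in METTL14. They had a median of 275 IP and 119 input reads, against 92 and 41 in the other 55 narrow islands with a fold of 2 or more. All 16 lay under a DRB island, and 15 of the 55 did. Whatever their fold, 66 of the 75 narrow islands at 2 to 5 times the median density did, and 64 of the 67 above that. Under 2 times it was 128 of the 387, so the counts are near the shares for density alone. On chromosome 11 at 85194801 to 85195400, for instance, 471 IP and 167 input reads gave a fold of 3.03 (2.53 to 3.63).

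**Figure D2:**
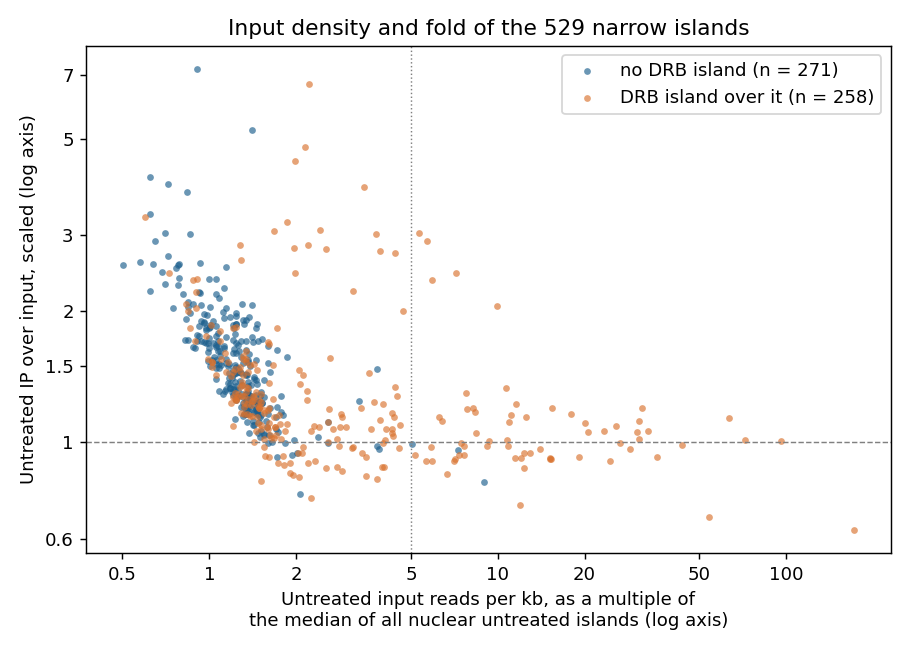
Untreated input density of the 529 narrow islands, as a multiple of the median of all nuclear untreated islands, against their untreated fold; both axes are logarithmic. Blue points have no DRB island over them (271) and orange points have one (258). The dotted line marks 5 times the median, beyond which 67 islands with a median fold of 0.997 lie, 64 of them orange.

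The narrow islands were spread over all 24 chromosomes, and unlike the candidates as a whole. Chromosome 1 held 51, chromosome 17 held 41 and chromosome 8 held 38. Chromosomes 2, 6, 14, 16, 17 and 20 together held 22.9% (19.4 to 26.7) of the narrow islands and 60.8% of all candidates. These were not the 6 with the most candidates, since chromosome 14 held 1384 and chromosome 1, outside the set, 1949. The set was chosen with earlier results of these data known, so its shares are a description only. On chromosome 2 narrow islands were 28 of 10099 candidates, or 0.277% (0.184 to 0.400), and on chromosome 20 they were 4 of 2732, or 0.146% (0.0399 to 0.374). Chromosome 17, also among the 6, went the other way, with 41 of 1881, or 2.18% (1.57 to 2.95), and a larger share of the narrow islands (7.75%) than of all candidates (4.86%). On the 18 chromosomes outside these 6, narrow islands were 2.69% (2.44 to 2.96) of the candidates. No test was made over islands, which are not replicates. HepG2 carries extra copies of some chromosomes, and copy number was not measured here.

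The sex chromosomes stood at the other end. Narrow islands were 18 of the 49 candidates on chromosome X, or 36.7% (23.4 to 51.7), and 16 of the 37 on chromosome Y, or 43.2% (27.1 to 60.5). Dense input, 5 times the median or more, was found in 9 of the 18 on X and 6 of the 16 on Y. Chromosome 19, the most gene-dense, followed chromosomes X and Y with 29 of 490, or 5.92% (4.0 to 8.39), of which 8 were listed and 1 was dense. Narrow islands had a median fold of 1.53 on chromosome 1 and 1.35 on chromosome 19, and of 1.13 on Y and 1.09 on X.

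**Figure D3:**
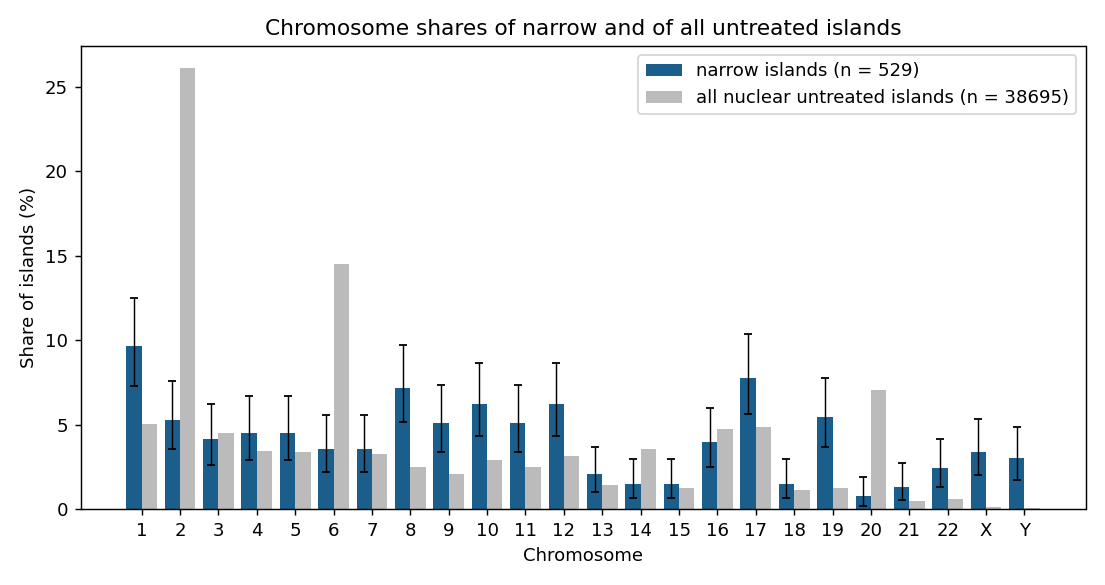
Share of the 529 narrow islands (blue, with exact 95% intervals) and of all 38695 nuclear untreated islands (grey) on each chromosome, in percent. Chromosome 2 holds 26.1% of all islands and 5.29% of the narrow ones, and chromosome 1 holds 5.04% and 9.64%.

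Many narrow islands stood alone. Their median distance to the nearest untreated island was 15.2 kb (quartiles 3.8 and 51.0), against 4.0 kb (1.0 and 13.4) for wider islands. More than 100 kb from any neighbour lay 81 of the 529 (15.3%) and 1402 of the wider ones (3.67%). Within 5 kb of a neighbour lay 158 (29.9%) and 21280 (55.8%). The 81 remote islands had a median fold of 1.67, and 38 of them were listed.

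The DRB libraries were not used to choose the islands. A DRB candidate island lay over 258 of the 529, or 48.8% (44.4 to 53.1), and over 61.3% (60.8 to 61.7) of the wider islands. Each of the 258 met 1 DRB island, and none was shared. For the other 271 there is no DRB read count, since the DRB table starts at 11 IP reads. Coverage followed input density, with 33.1% of members under 2 times the median, 88.0% of those at 2 to 5 times and 95.5% of those above lying under a DRB island. The 271 members without a DRB island had a median untreated fold of 1.5, and 95 were listed. The 258 with one had 1.16, and 46 were listed.

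At the DRB islands over narrow members the IP was close to the input. The median DRB fold was 1.06 (quartiles 0.800 and 1.34), from a median of 28.5 IP and 26 input reads. All 67801 nuclear DRB islands had 1.51, from 21 and 13 reads, and those over wider untreated islands had 1.29. The DRB fold was below the untreated fold at 173 of the 258 and above it at 85. Over wider islands the order was the other way, with 5476 below and 17904 above. The split varied with input density. Narrow members under 2 times the median density had 73 below and 55 above. Those at 5 times or more had 54 and 10. Wider islands under 2 times had 5355 and 17888. The 42 wider islands at 5 times or more had 40 and 2, with a median DRB fold of 0.793. Among the 258 narrow members, the intervals of the conditions overlapped in 216 cases. Of the others the DRB interval was the lower one in 40 and the higher one in 2. For wider islands these were 169 and 608. The extents differed, with a DRB island wider than the member in 141 cases, as wide in 72 and narrower in 45. Where each covered at least 50% of the other, in 166 cases, the median DRB fold was 0.995 and the untreated one 1.14.

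Of the 20 members with the highest untreated folds, 9 had no DRB island, and the other 11 had DRB folds from 0.580 to 1.86. Choosing members by their untreated fold favours a lower DRB value. In METTL14, DRB gave 20 IP and 24 input reads in a 400 bp island at the first site (0.717, 0.376 to 1.35). At the second it gave 53 and 45 in an island of 4000 bp (1.01, 0.668 to 1.54). In BTRC it gave 31 and 46 reads in an island of 1000 bp, over a member of 800 bp (0.580, 0.356 to 0.935). On chromosome 13 at 46948401 it gave 25 and 26 in an island of 1000 bp, over a member of 400 bp (0.828, 0.458 to 1.49). Of the 11 sites among the 20 highest with a DRB island, 10 had a DRB interval that ended under the untreated one. The exception, on chromosome 12 at 34372401 to 34372800, had 100 IP and 35 input reads untreated (3.07, 2.07 to 4.64) and 67 and 31 with DRB (1.86, 1.20 to 2.95).

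At some dense sites the DRB input reads outnumbered the untreated ones although the DRB libraries were far shallower, while the IP reads were fewer. The chromosome 11 site at 85194801 had 259 IP and 226 input reads with DRB, 53.8 times the DRB median input density where the untreated value was 5.32 times the median. Its DRB fold was 0.986 (0.822 to 1.18). Chromosome 17 at 33478001 to 33478400 had 323 and 119 reads untreated (2.91, 2.35 to 3.62) and 199 and 135 with DRB (1.27, 1.01 to 1.59). Chromosome 5 at 71146601 to 71147000 had 343 and 150 untreated (2.45, 2.02 to 2.99). The DRB island there had 281 and 168 (1.44, 1.18 to 1.75). It was wider, 600 against 400 bp, so these input counts are not of equal extent. Over the 16 members of high fold and dense input, the median DRB input density was 20.0 times the DRB median and the median DRB fold 1.17.

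Whether IP and input were even was tested for the DRB islands over narrow members. These islands were called from the same DRB IP reads, so their choice favours IP above input. All nuclear DRB islands had a median fold of 1.51, so an even ratio is no neutral level, and the counts are descriptions. An exact binomial test, two-sided and with Benjamini-Hochberg adjustment over all nuclear DRB islands, called 11 of the 258 (4.26%) at an adjusted p under 0.05. Over all nuclear DRB islands it called 0.0900%, or 61. With the scaling centred on the median DRB island it called 52 of the 258, 51 of them with IP below input, and 1026 overall. It compares 2 libraries and not conditions, and it calls more readily where reads are many. Of the 11, 10 had IP below input, all 10 over members with dense input (5 times the median or more). The 64 DRB islands over such members had a median of 98.5 input reads and a median fold of 0.778. Of the 42 wider untreated islands with equally dense input, 20 lay under a called DRB island.

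The strongest deficits lay at the same sites as in untreated cells. Chromosome 1 at 569801 to 570200 had 1764 IP and 5450 input reads with DRB, a fold of 0.279 (0.264 to 0.294). Chromosome 17 at 22020601 had 194 and 580 (0.288, 0.243 to 0.339; exact binomial test, adjusted p = 5.88e-55). Chromosome 7 at 45291401 had 99 and 297 (0.287, 0.226 to 0.361; exact binomial test, adjusted p = 2.96e-27). Chromosomes 1, 5, 9, 21 and Y held 1 each of the remaining 7, and X held 2, with DRB folds from 0.311 to 0.716 and untreated folds from 0.907 to 1.20.

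In 1 of the 11 the IP was above the input, the direction that calling islands from IP reads favours. On chromosome 4 at 49141601 to 49142800, islands of identical extent had 96 IP and 24 input reads with DRB and 72 and 95 untreated. The folds were 3.44 (2.18 to 5.63; exact binomial test, adjusted p = 1.02e-05) and 0.813 (0.590 to 1.12).

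The authors' DRB list held 8 of the 258 DRB islands, or 3.10%, where it held 4.76% of all nuclear DRB islands. Of these 8 narrow members, 4 were on the untreated list too. The chromosome 12 site at 34372401 and the chromosome 5 site at 71146601, already given, were among the 4. So was chromosome 1 at 237068201 to 237069400, with 119 IP and 82 input reads untreated (1.56, 1.17 to 2.09) and 22 and 6 with DRB (3.16, 1.24 to 9.51). It was the 1 listed in both conditions whose DRB fold was the higher. The 4 on the DRB list alone, which include the chromosome 4 site at 49141601, had untreated folds from 0.813 to 1.30.

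**Figure D4:**
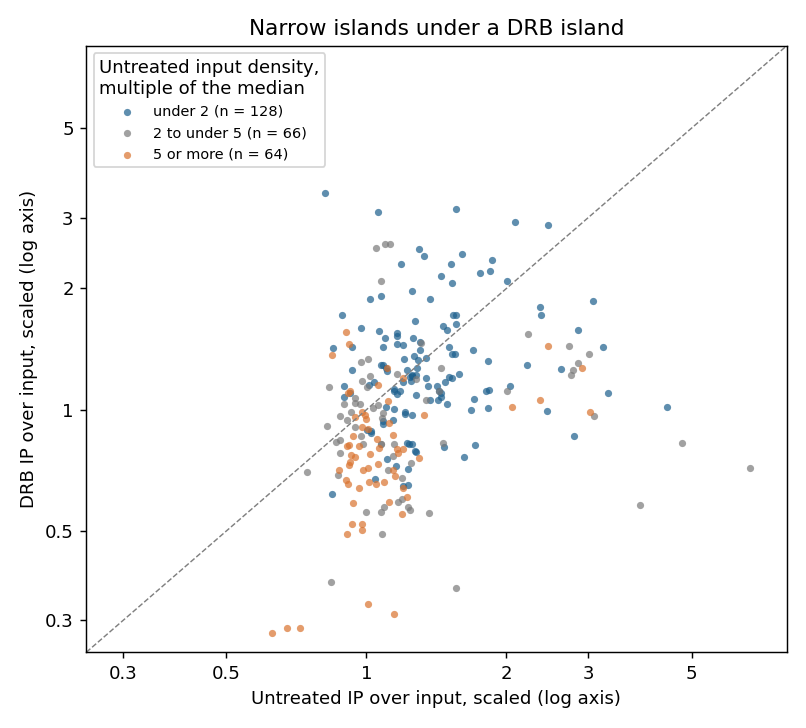
Untreated against DRB fold of the 258 narrow islands with a DRB island over them, both on log axes, coloured by untreated input density as a multiple of the median. The dashed line marks equal folds; 173 points lie below it and 85 above, and the 64 densest (orange) have a median DRB fold of 0.778.

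Input density of the 2 conditions ran closely together across sites, and fold less so. Over the 166 sites with 50% reciprocal overlap, Spearman's rho was 0.89 for input density and 0.37 for the fold. Both are descriptions across sites that share the mapping and the sequence of each site. For the fold it was 0.29 over the 51 sites with dense input and 0.25 over the other 115.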

How the data were processed

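Anti-HA ChIP-seq was read from 1 table of candidate islands per condition. Single-end reads of 50 nt were aligned with Bowtie 1.1.2 to hg19 and islands called with SICER, per the submitters' processing notes. Window and gap settings, and how the 2 untreated replicates were combined, are not given in the sources that were used. The deposited counts are whole IP and input reads per island, not normalized. The deposited ratio (fold) equals IP over input reads times 1 constant per table. The deposited p-value and false discovery rate are the authors' own, and their significant lists were exactly the islands with a rate under 1e-04, by a test on the files.

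Narrow islands were those of at most 1200 bp, without the mitochondrial genome. Overlap was counted at 1 bp. Named islands were the 20 of highest and 5 of lowest fold. The members, lists and tests were chosen with earlier results of these data known. The exact binomial test (2 times the smaller tail, over 67801 DRB islands) was tested on simulated data. Whether the untreated libraries were separate cultures is not stated. Alternatives changed the width limit, overlap, scaling, list threshold and islands kept. Tests used SciPy 1.17.1, tables pandas 2.3.3 and numpy 2.4.6, and plots matplotlib 3.10.9, under Python 3.11.15.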

Additional observations from a re-analysis of the deposited data

Results flagged for a closer look

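At 7 narrow islands the untreated fold had an interval above 1 and the DRB fold an interval below 1, and the difference itself was not tested. The one in BTRC on chromosome 10 at 103124001 had folds of 3.87 untreated and 0.58 with DRB. On chromosome Y the folds were 1.56 and 0.36 at 58848001, 1.36 and 0.56 at 13651201, 1.20 and 0.64 at 58827201, and 1.15 and 0.69 at 58855201. On chromosome 8 at 43772201 they were 1.22 and 0.61, and on chromosome 21 at 14353201 they were 1.14 and 0.71. The DRB island was wider than the member in BTRC (1000 against 800 bp), at 13651201 (2600 against 1200 bp) and at 43772201 (1000 against 400 bp). At the other sites the extents were the same. Untreated input density at the 7 ran from 2.07 to 63.3 times the median. No member showed the opposite order, but only 5 of the 529 had an untreated interval below 1, against 237 above it. That absence therefore shows no direction.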

How the results depend on the processing

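Values rest on counting error alone, and DRB reads were too few for most single sites. No paired analysis was possible because each condition has 1 table with no columns per replicate. With widths up to 800 bp (212 islands), 72 were listed instead of 141, 60.4% lay under a DRB island, 17.5% were on the 6 chromosomes and the median DRB fold turned from 1.06 to 0.935. With widths up to 2000 bp (2494 islands), 393 were listed, the median fold was 1.22, 43.6% lay under a DRB island, the median DRB fold was 1.199 and 34.2% were on the 6 chromosomes; both alternatives change the number of islands. Without the islands of dense input (5 times the median or more), the median fold was 1.37, 42.0% lay under a DRB island and the median DRB fold was 1.15. At 50% reciprocal overlap 31.4% had a DRB island, with a median DRB fold of 0.995. An exact binomial test on the untreated reads at an adjusted p under 1e-04 kept 40 of the narrow islands. That count has no share over all nuclear islands beside it, and nothing is read from it. With the DRB scaling centred on its median island, 52 DRB islands were called, 51 of them lower, among 1026 overall. Of 30 values under alternatives, 14 kept within their margin, among them all 5 without chromosome Y and both without the METTL14 region, which was chosen after seeing the data.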
